A study of Mus musculus with 12 samples.

Results

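The mRNA examined here encode the enzymes and regulators of cholesterol and fatty acid synthesis in mouse cytotoxic T lymphocytes (CTL). The set was a list of 40 genes chosen by name, and all 40 were among the 13283 genes of the table of FPKM values (fragment counts scaled by exon length and library depth). They were divided by known role. A sterol arm of 19 genes runs from acetyl-CoA to cholesterol (7 genes of the mevalonate steps, 11 of the steps from squalene to cholesterol, and the sterol carrier Stard4). A fatty acid arm of 12 genes makes, elongates and desaturates fatty acids. The others were 5 regulators of the pathway and 4 genes of cholesterol efflux and the liver X receptor (LXR).

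There were 4 groups of 3 libraries. WT CTL carried the granzyme B promoter driven Cre transgene alone, and FOXO1-GFP KO CTL carried FOXO1-GFP fl/fl alleles and the same Cre, so all 12 libraries came from Cre-expressing cells and deletion followed the promoter of an effector gene. Each genotype was cultured for the last 24 h with vehicle (DMSO) or with 10 µM of the p110δ inhibitor IC87114 (PI3Kdi). Cells came from lymph nodes or spleens of female mice of 11 to 27 weeks, were activated for 48 h with antibodies to CD3 and CD28, and were expanded in 20 ng/mL interleukin-2 and 2 ng/mL interleukin-12. WT cells were sorted as live CD8+ and FOXO1-GFP KO cells as live CD8+ cells that had lost GFP, so the gates differed between genotypes.

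Cells control sterol and fatty acid synthesis largely through the SREBP transcription factors, which are made as membrane proteins of the endoplasmic reticulum. SCAP escorts them to the Golgi, where proteases release the active part, and INSIG proteins hold SCAP back when sterols are plentiful. SREBP2 (Srebf2) is known mainly for the cholesterol genes and SREBP1 (Srebf1) mainly for the fatty acid genes, while LXR, which senses oxysterols, drives cholesterol export. Activated T cells raise both arms as they grow and divide.

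Estimated depth ran from 12.9 to 48.0 M reads a library, and WT+PI3Kdi libraries were shallower (mean 16.6 M) than WT libraries (mean 33.7 M). Foxo1 was at 5.77 to 10.5 FPKM in the 6 WT libraries and at 0.58 to 1.75 FPKM in the 6 FOXO1-GFP KO libraries. All 8 CD8 T cell markers were present, with summed levels of 9457 to 13882 FPKM. Of 10 B cell markers 6 were in the table, and Cd79a, Ms4a1 and Pax5 were not. The sum of the 6 was 19.5 to 25.8 FPKM in WT libraries with or without PI3Kdi and 8.72 to 11.9 FPKM in FOXO1-GFP KO libraries, so it moved with genotype, mostly through Ighm, and its part in the genotype results was not tested. Of 8 myeloid markers 3 were in the table, with sums of 14.8 to 27.04 FPKM, and none of 3 erythroid markers. In bulk RNA, fewer cells of a type and less RNA per cell cannot be told apart. Summed proliferation markers (10 of 10 present) ranged from 743 to 927 FPKM with all 4 groups overlapping.

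All members were measured at some level, from 0.03 FPKM (Abca1) to 255 FPKM (Scd2). On the FPKM scale, which allows for transcript length, the most abundant in WT CTL were Scd2 (206 ± 49 FPKM, SD, n = 3), a stearoyl-CoA desaturase, Hmgcs1 (89.9 ± 14.5), which makes HMG-CoA, Acly (66.0 ± 22.8), which makes cytosolic acetyl-CoA, Cyp51 (65.0 ± 4.42), the lanosterol demethylase, and Srebf2 (64.3 ± 11.9). Me1, the malic enzyme, and Abca1, the cholesterol exporter, had means under 1 FPKM and rested on as few as 5 and 4 estimated reads in a library.

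Which libraries were high and low was common to much of the set. The group mean was highest in WT and lowest in FOXO1-GFP KO+PI3Kdi for 26 of the 40 members, compared with 20.0% of all genes, and for 16 of 19 genes of the sterol arm. FOXO1-GFP KO+PI3Kdi replicate 3 had the lowest value of all 12 libraries for 22 members (13 of the sterol arm and 7 of the fatty acid arm). WT replicate 1 had the highest for 17. The share of all genes with an extreme in these libraries was not computed, so whether these counts are particular to the set is not known.

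**Figure D1:**
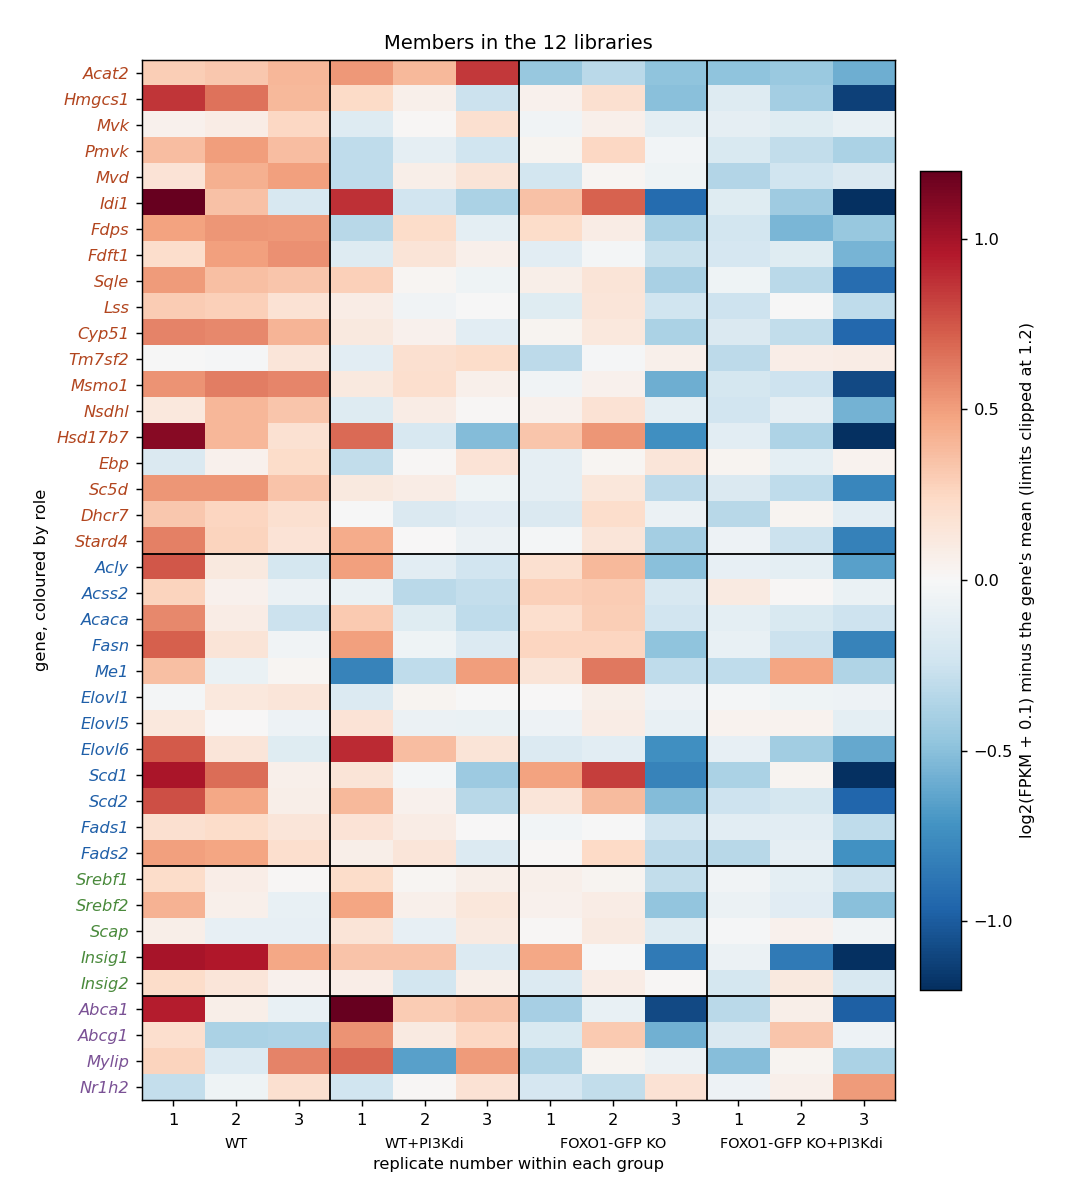
Heat map of the 40 members (rows, grouped by role and coloured as sterol arm, fatty acid arm, regulators, and efflux and LXR) in the 12 libraries (columns, 3 replicates a group). Colour is log2(FPKM + 0.1) minus the gene's mean over the 12 libraries. The sterol rows are mostly red in WT and mostly blue in FOXO1-GFP KO+PI3Kdi, with replicate 3 of that group the darkest, while Ebp, Tm7sf2, Elovl5 and Scap stay pale throughout.

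The first comparison asked how 24 h without p110δ activity altered these mRNA in WT CTL. Most of the sterol arm was lower with PI3Kdi: 17 of 19 sterol genes were lower in all 3 pairs of vehicle and PI3Kdi libraries, as were 27 of the 40 members, against 29.5% of all genes. The median log2 fold change was -0.39 for the sterol arm, -0.18 for the fatty acid arm and -0.04 for all genes. In each of the 3 pairs the sterol arm's median ratio was close to the others (-0.37, -0.34 and -0.33 on the log2 scale), and 17 or 18 of 19 genes were lower. By limma with 4 group means and no pairing, 0 members passed an adjusted p of 0.05 with a fold change above 1.5, against 0.0979% of all genes. An unadjusted p under 0.05 was found for 9 members, all of the sterol arm, against 5.14% of all genes. Libraries with the same replicate number within a genotype deviated together across the transcriptome, and with that number as a replicate block 4 members passed both thresholds, all lower, against 1.05% of all genes (2.57% in either direction). These were Hmgcs1, Pmvk, Scd1 and Insig1.

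By the adjusted p alone in the blocked fit, 15 of 40 members fell, against 3.53% of all genes, and 2 rose (Acat2 and Abcg1), against 3.88%. Of the 15, 11 were in the sterol arm: Hmgcs1, Pmvk, Mvd and Fdps of the mevalonate steps, and Fdft1, Lss, Cyp51, Msmo1, Nsdhl, Sc5d and Dhcr7, which turn farnesyl units into cholesterol. The others were Scd1, Scd2 and Fads2, which are desaturases, and Insig1. These counts depended on every pair. Without WT pair 1, 2 or 3 the members that fell numbered 3, 7 and 6, while the share of all genes that fell went to 0.798%, 0.896% and 1.09%. Pmvk and Mvd passed in all 3 of these fits. With single libraries left out, 7 or 8 members fell without any 1 WT library or without WT+PI3Kdi replicate 1 or 3, against 1.05% to 1.60% of all genes.

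Hmgcs1 (ENSMUSG00000093930, chr13:119690379-119708260, plus strand, GRCm38), the HMG-CoA synthase, stood at 104, 90.1 and 75.2 FPKM in WT and at 67.5, 60.1 and 48.0 FPKM in WT+PI3Kdi. Every PI3Kdi library was below every WT library. The log2 fold change was -0.62 (SE 0.11, adjusted p = 0.00525 with the replicate block, 0.837 without), and it did not pass without WT pair 1.

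Pmvk (chr3:89454541-89469013, plus strand), which phosphorylates mevalonate phosphate, stood at 21.02, 23.08 and 21 FPKM in WT and 13.2, 15.1 and 13.8 FPKM in WT+PI3Kdi. It had the smallest spread among the members that passed both thresholds, and the groups were well apart. Its log2 fold change was -0.63 (SE 0.06, adjusted p = 0.00013 with the replicate block). Without the block its adjusted p was 0.0678, the lowest of the 40 members in this comparison.

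Insig1 (chr5:28071363-28078662, plus strand) is itself a known SREBP target, and its protein holds SCAP back when sterols are plentiful. Its mRNA stood at 45.2, 44.2 and 31.4 FPKM in WT and at 28.8, 28.8 and 20.2 FPKM in WT+PI3Kdi. The groups did not overlap. Its log2 fold change was -0.63 (SE 0.15, adjusted p = 0.0237 with the replicate block), and it did not pass when any 1 WT pair was left out.

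Scd1 (chr19:44394455-44407879, minus strand), which introduces the double bond of oleic acid, stood at 16.98, 13.7 and 8.95 FPKM in WT and at 9.56, 8.45 and 6.30 FPKM in WT+PI3Kdi. The groups overlapped, since WT replicate 3 was below WT+PI3Kdi replicate 1, but each pair fell. Its log2 fold change was -0.67 (SE 0.17, adjusted p = 0.037 with the replicate block), the largest of the set in WT, and it too did not pass when any 1 WT pair was left out.

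Cyp51 and Sc5d showed the more typical size of the sterol arm. Cyp51 stood at 67.9, 67.2 and 59.9 FPKM in WT and at 48.9, 46.7 and 41.3 FPKM in WT+PI3Kdi (log2 fold change -0.51, SE 0.08). Sc5d, the sterol desaturase near the end of the pathway, went from a mean of 24.0 ± 1.78 to 17.95 ± 1.08 FPKM (SD, n = 3, log2 fold change -0.42). Other members of the arm were far from any threshold. The log2 fold changes of Ebp, a sterol isomerase, and Tm7sf2, a sterol reductase, were -0.07 and 0.05, with 95% intervals of -0.21 to 0.07 and -0.14 to 0.25 with the replicate block.

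**Figure D2:**
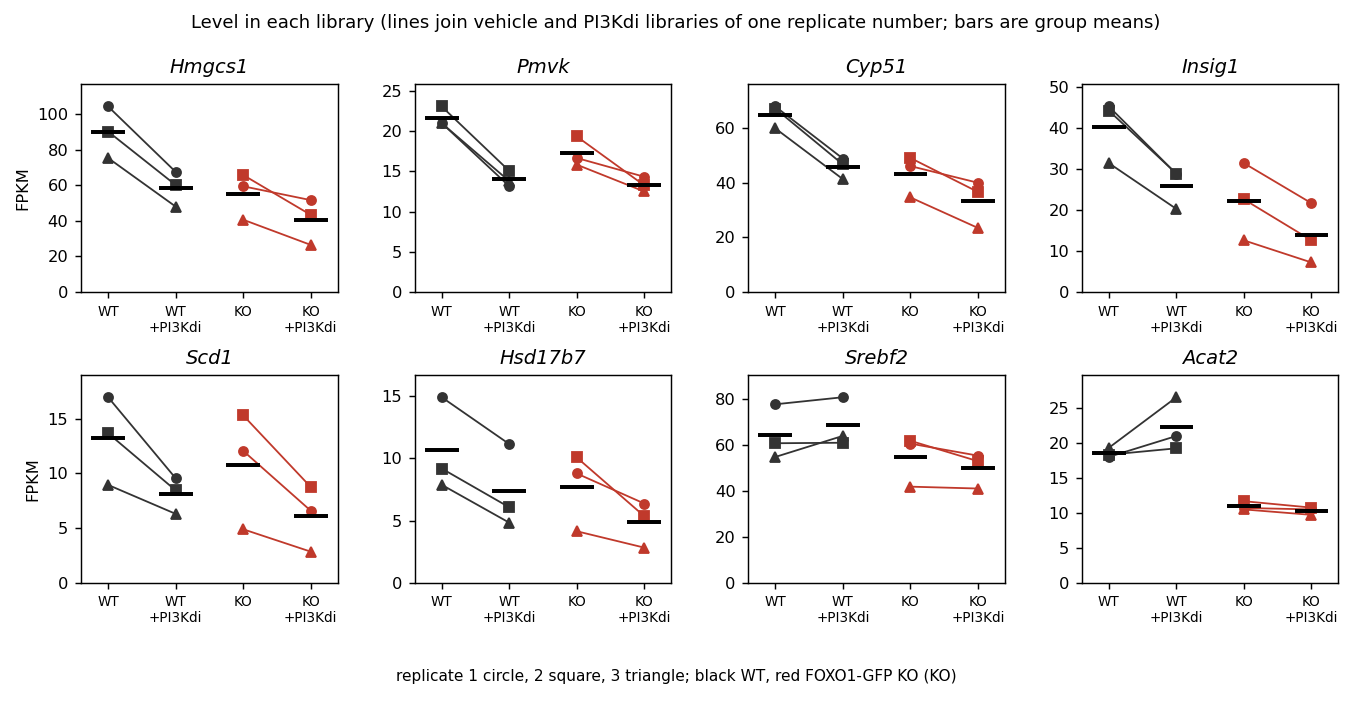
FPKM (vertical axis from 0) of 8 members in the 4 groups. Each point is a library, lines join the vehicle and PI3Kdi libraries of the same replicate number, and horizontal bars are group means (n = 3). All 6 lines fall for Hmgcs1, Pmvk, Cyp51, Insig1, Scd1 and Hsd17b7, while for Srebf2 and Acat2 the 3 WT lines rise and the 3 FOXO1-GFP KO lines fall.

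The second comparison gave the response to PI3Kdi in CTL without FOXO1. Again most of the sterol arm was lower, with 16 of 19 genes and 27 of 40 members lower in all 3 pairs, against 26.4% of all genes. The median log2 fold change was -0.32 for the sterol arm, -0.25 for the fatty acid arm and -0.02 for all genes. The pairs were less alike than in WT, with sterol medians of -0.13, -0.30 and -0.34 on the log2 scale. Without pairing 0 members passed both thresholds (0.0452% of all genes did), and 2 had an unadjusted p under 0.05, a share of members close to the 5.17% of all genes. With the replicate block 3 members passed both thresholds, all lower (Hsd17b7, Scd1 and Insig1), against 0.964% of all genes (2.79% in either direction).

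By the adjusted p alone in the same fit, 13 members fell, against 4.06% of all genes, and 1 rose (Nr1h2, which encodes LXR beta), against 6.02%. The 8 sterol genes among them were Hmgcs1, Pmvk, Sqle, Cyp51, Msmo1, Nsdhl, Hsd17b7 and Sc5d. The fatty acid genes were Fasn, the fatty acid synthase, with Scd1, Scd2 and Fads2, and the regulator was Insig1. The members that fell numbered 3 without FOXO1-GFP KO pair 2, 7 without pair 3 and 8 without WT pair 2, while the share of all genes that fell went to 0.662%, 1.10% and 2.05%. Nsdhl and Fads2 passed whichever FOXO1-GFP KO pair was left out. Of single libraries, 2 members fell without FOXO1-GFP KO replicate 2 or FOXO1-GFP KO+PI3Kdi replicate 3, 4 without FOXO1-GFP KO+PI3Kdi replicate 2, and 8 and 9 without FOXO1-GFP KO replicates 1 and 3, against 0.745% to 2.07% of all genes.

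Hsd17b7 (chr1:169949535-169969241, minus strand), a ketosteroid reductase of the sterol C4 demethylation steps, stood at 8.79, 10.1 and 4.14 FPKM in FOXO1-GFP KO and at 6.37, 5.35 and 2.82 FPKM in FOXO1-GFP KO+PI3Kdi. Replicate 3 was the lowest of both groups and the groups overlapped. The log2 fold change was -0.63 (SE 0.17, adjusted p = 0.0353 with the replicate block), and it did not pass when any 1 FOXO1-GFP KO pair was left out. In WT it went from 14.9, 9.19 and 7.88 to 11.2, 6.07 and 4.83 FPKM, with an adjusted p of 0.0608 in the same fit.

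Scd1 stood at 12.1, 15.3 and 4.89 FPKM in FOXO1-GFP KO and at 6.59, 8.76 and 2.84 FPKM with PI3Kdi, and its log2 fold change of -0.81 (SE 0.17, adjusted p = 0.0156 with the replicate block) was the largest of the set in that genotype, though it did not pass without FOXO1-GFP KO pair 1. Insig1 stood at 31.4, 22.6 and 12.6 FPKM and at 21.6, 12.6 and 7.18 FPKM with PI3Kdi. Each pair was lower although the groups overlapped, and the log2 fold change was -0.72 (SE 0.15, adjusted p = 0.0124 with the replicate block), not passing without FOXO1-GFP KO pair 2.

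Idi1, the isopentenyl diphosphate isomerase, had the second largest log2 fold change in FOXO1-GFP KO (-0.73, SE 0.22, adjusted p = 0.0558 with the replicate block), short of the threshold. It varied more between replicates than between treatments, at 17.2, 7.71 and 5.28 FPKM in WT, 11.2, 5.13 and 4.61 FPKM in WT+PI3Kdi, 7.73, 9.90 and 3.13 FPKM in FOXO1-GFP KO, and 5.44, 4.48 and 2.10 FPKM in FOXO1-GFP KO+PI3Kdi.

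Over both genotypes, 24 of 40 members were lower in all 6 pairs, 15 of them in the sterol arm and 8 in the fatty acid arm, against 14% of all genes. Without FOXO1-GFP KO pair 3, whose libraries were the lowest for much of the set, the number was 26 (16.2% of all genes). In the blocked fit, 10 members passed the adjusted p and were lower in both genotypes, which was 66.7% of the 15 in WT and 76.9% of the 13 in FOXO1-GFP KO. For all genes the shared calls were 149, which was 31.8% of the 469 in WT and 27.6% of the 539 in FOXO1-GFP KO. The 10 were Hmgcs1, Pmvk, Cyp51, Msmo1, Nsdhl, Sc5d, Scd1, Scd2, Fads2 and Insig1. The responses of the genotypes were compared directly by an interaction term. It passed for 0 members and 0% of all genes without pairing (at an unadjusted p under 0.05 there were 0 members, against 1.51% of all genes) and for 0 members and 0.0226% of all genes with the replicate block (6 members, and 10.8% of all genes, with an unadjusted p under 0.05). For Hmgcs1 the difference (FOXO1-GFP KO minus WT) was 0.15 on the log2 scale, with a 95% interval of -0.18 to 0.48 in the blocked fit, and for Insig1 -0.09 (-0.55 to 0.36). Pmvk had the smallest unadjusted p among members lower in both genotypes, with a difference of 0.26 (0.08 to 0.45, adjusted p = 0.262).

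**Figure D3:**
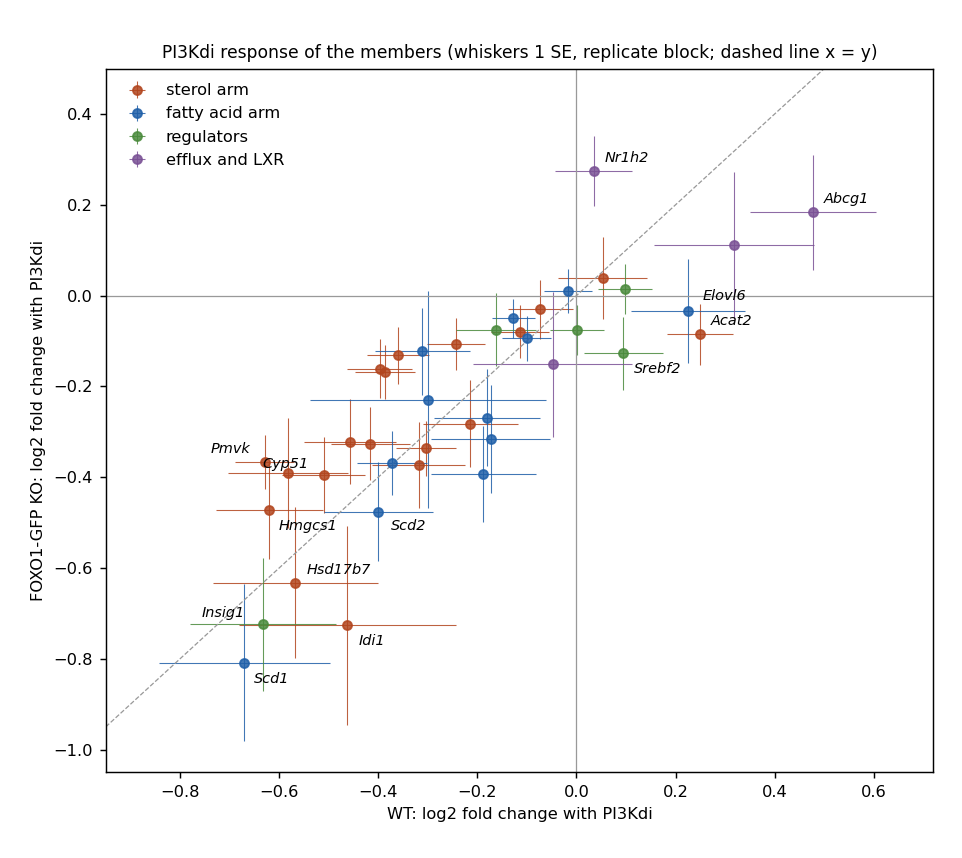
Log2 fold change with PI3Kdi in WT (horizontal) and in FOXO1-GFP KO (vertical) for the 40 members, with whiskers of 1 SE from the fit with the replicate block and colours by role. Most sterol and fatty acid genes lie in the lower left quadrant around the dashed line of equal response, with Scd1, Idi1 and Insig1 lowest, while Acat2, Elovl6 and Srebf2 lie right of the vertical axis and below 0.

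Genotypes were then compared at the same treatment. Without PI3Kdi all 19 sterol genes had a negative log2 fold change, with a median of -0.46, and the fatty acid arm had a median of -0.23, against -0.01 for all genes. These medians leaned on single libraries: without FOXO1-GFP KO replicate 3 they were -0.28 and -0.014, and the fatty acid median was -0.088 without WT replicate 1 and -0.35 without WT replicate 3 or FOXO1-GFP KO replicate 2. Every FOXO1-GFP KO library was below every WT library for 13 members, 12 of them in the sterol arm, against 6.79% of all genes. Without FOXO1-GFP KO replicate 3 the numbers were again 13 and 12, against 11.7% of all genes, while without WT replicate 3 or FOXO1-GFP KO replicate 2 there were 21 and 20 members, against 12.5% and 11.3% of all genes. Among these were Hmgcs1, at 59.4, 65.7 and 40.6 FPKM in FOXO1-GFP KO, Cyp51, at 46.1, 49.1 and 34.6 FPKM, and Msmo1, the C4-methyl sterol oxidase, at 12.7, 13.6 and 8.73 FPKM against 19.2, 20.2 and 19.8 FPKM in WT. None of these 3 passed the adjusted p (Msmo1 log2 fold change -0.78, SE 0.22, adjusted p = 0.24). By limma with both thresholds the call was Acat2 alone, against 0.331% of all genes, and 15 members had an unadjusted p under 0.05, against 6.51% of all genes. With the replicate block 0 members passed, against 0.233% of all genes, and 16 had an unadjusted p under 0.05, against 5.09% of all genes.

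With PI3Kdi in both arms of the comparison, the median log2 fold change was -0.34 for the sterol arm, -0.30 for the fatty acid arm and 0.01 for all genes. The fatty acid median was -0.13 without FOXO1-GFP KO+PI3Kdi replicate 3 and -0.20 without WT+PI3Kdi replicate 1. Libraries did not overlap, with FOXO1-GFP KO+PI3Kdi below, for 9 members, against 7.9% of all genes. Without FOXO1-GFP KO+PI3Kdi replicate 3 the number was again 9, and it was 16 without WT+PI3Kdi replicate 1, WT+PI3Kdi replicate 3 or FOXO1-GFP KO+PI3Kdi replicate 1, and 14 without FOXO1-GFP KO+PI3Kdi replicate 2, while the share of all genes ran from 10.9% to 13.04% in these fits. The 9 were Acat2, Cyp51, Msmo1, Sc5d, Elovl6, Fads1, Srebf1, Srebf2 and Abca1. Acat2 again passed both thresholds alone, against 1.45% of all genes without pairing and 1.18% with the replicate block.

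Acat2 (ENSMUSG00000023832, chr17:12942890-12960747, minus strand), which condenses acetyl-CoA units at the head of the pathway, was at 18.1, 18.4 and 19.4 FPKM in WT, 21.1, 19.3 and 26.6 FPKM in WT+PI3Kdi, 10.7, 11.7 and 10.5 FPKM in FOXO1-GFP KO and 10.5, 10.8 and 9.73 FPKM in FOXO1-GFP KO+PI3Kdi. All 6 FOXO1-GFP KO libraries were below all 6 WT libraries. The log2 fold change was -0.76 without PI3Kdi (SE 0.12, adjusted p = 0.0193, 0.0507 with the replicate block) and -1.09 with PI3Kdi (SE 0.12, adjusted p = 0.00103, 0.00275 with the replicate block). The call without PI3Kdi was lost when any 1 of the 6 vehicle libraries was left out, and the call with PI3Kdi was kept without any 1 library. In WT its level rose with PI3Kdi by the blocked fit (log2 fold change 0.25, SE 0.07, adjusted p = 0.0447, not passing without WT pair 1 or 3), and Tm7sf2 was the other sterol gene with a positive value. A paralog, Acat3, is 97.7% identical over 1477 bases and was at 0.55 to 1.87 FPKM. Tcp1, a chaperonin subunit, matches Acat2 at 98.7% over 445 bases and was at 87.98 to 130 FPKM. How this likeness affected the reads counted for Acat2 was not tested.

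**Figure D4:**
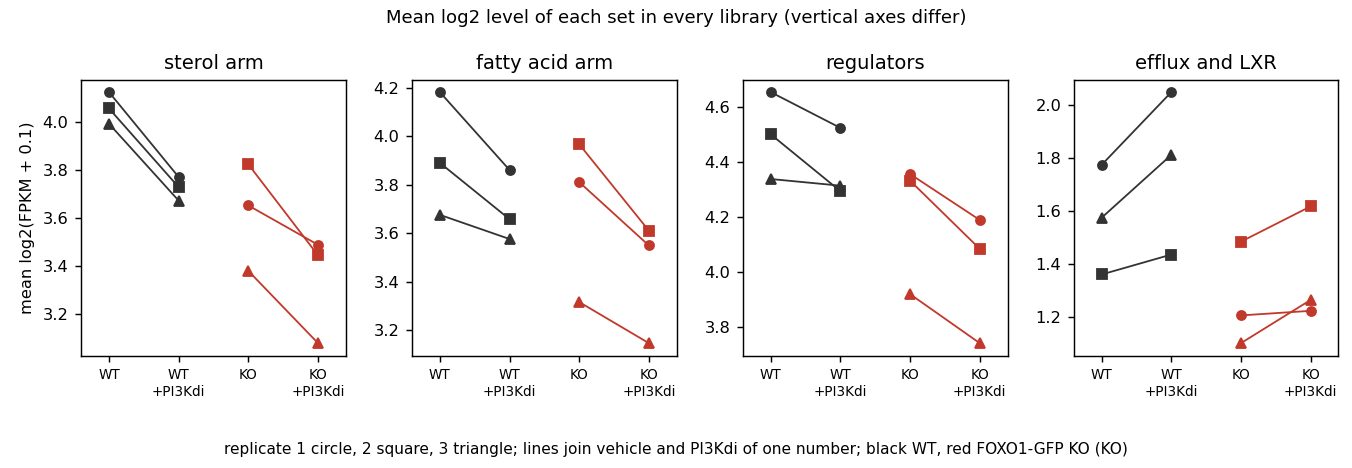
Mean of log2(FPKM + 0.1) over the genes of each set (vertical axis, ranges differ between panels) in each of the 12 libraries, with lines joining vehicle and PI3Kdi libraries of the same replicate number. The 3 WT lines of the sterol arm run close together and down, from 3.99 to 4.12 to between 3.67 and 3.77, while the fatty acid lines are spread over replicates.

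Variation over the libraries of a genotype was divided between treatment and pairs. In WT, PI3Kdi accounted for a median of 66.0% of a sterol gene's variation over the 6 libraries and the differences between pairs for 31.7%. For fatty acid genes the medians were 22.03% and 64.4%, and for all genes averaging 1 FPKM or more 7.67% and 79.2%. The share with PI3Kdi was the larger for 13 of 19 sterol genes and 4 of 12 fatty acid genes, compared with 15.7% of all such genes. In FOXO1-GFP KO the medians with PI3Kdi were 27.3% for the sterol arm and 23.4% for the fatty acid arm, and differences between pairs took 64.5% and 73.2%, compared with 14.96% and 69.0% for all such genes. There the share with PI3Kdi was the larger for 5 of 19 sterol genes and 0 of 12 fatty acid genes, compared with 18.1% of all such genes. Acly is an example of variation between pairs, at 91.4, 59.4 and 47.3 FPKM in WT and 76.8, 50.1 and 46.5 FPKM in WT+PI3Kdi, so WT replicate 3 was below WT+PI3Kdi replicate 1. Fasn behaved alike, at 69.8, 47.2 and 41.1 FPKM in WT and 59.5, 40.8 and 37.7 FPKM in WT+PI3Kdi.

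Of the desaturases in the fatty acid arm, Scd1, Scd2 and Fads2, which introduces double bonds into polyunsaturated chains, fell in both genotypes by the blocked fit, while Fads1, another fatty acid desaturase, went from 11.1 ± 0.29 to 10.3 ± 0.55 FPKM in WT and from 9.15 ± 0.74 to 8.56 ± 0.60 FPKM in FOXO1-GFP KO (SD, n = 3) without passing. Scd2 went from 206 ± 49.0 to 156 ± 38.8 FPKM in WT and from 154 ± 46.2 to 110 ± 28.9 FPKM in FOXO1-GFP KO (SD, n = 3), with log2 fold changes of -0.40 and -0.48. Fads2 had the same log2 fold change of -0.37 in both. The elongases did not pass: Elovl1 and Elovl5, which act on very long and polyunsaturated chains, had log2 fold changes in WT of -0.13 and -0.02, and Elovl6, which extends palmitate, 0.23 (SE 0.11, adjusted p = 0.257 with the replicate block). Acss2 and Acaca, which supply acetyl-CoA and malonyl-CoA, had -0.31 and -0.18 without passing.

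The regulators other than Insig1 passed in no comparison. Srebf2 stood at 77.6, 60.7 and 54.7 FPKM in WT, 80.7, 60.9 and 63.9 FPKM in WT+PI3Kdi, 60.5, 61.7 and 41.8 FPKM in FOXO1-GFP KO and 55.3, 52.9 and 41.0 FPKM in FOXO1-GFP KO+PI3Kdi. Its log2 fold changes with PI3Kdi were 0.09 in WT (95% interval -0.08 to 0.27) and -0.13 in FOXO1-GFP KO (-0.30 to 0.05) in the blocked fit. Srebf1 stood at 32.4, 29.3 and 28.0 FPKM in WT, 32.4, 28.2 and 29.2 FPKM in WT+PI3Kdi, 28.9, 28.4 and 22.6 FPKM in FOXO1-GFP KO and 26.9, 25.5 and 23.1 FPKM in FOXO1-GFP KO+PI3Kdi. The intervals of its PI3Kdi log2 fold changes were -0.12 to 0.12 in WT and -0.20 to 0.05 in FOXO1-GFP KO. Between genotypes with PI3Kdi, where neither overlapped, Srebf2 had a log2 fold change of -0.46 (SE 0.16, adjusted p = 0.326 in the blocked fit) and Srebf1 one of -0.25 (SE 0.11, adjusted p = 0.55). These mRNA say nothing of how much SREBP protein was cleaved. Scap and Insig2 were at 14.3 to 17.6 and 3.80 to 5.20 FPKM over all libraries and passed in no comparison.

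With PI3Kdi the genes of efflux and LXR had positive median log2 fold changes (0.18 in WT and 0.15 in FOXO1-GFP KO), while between genotypes their medians were negative like those of the sterol arm (-0.21 without PI3Kdi and -0.37 with it). Abcg1, which exports cholesterol, stood at 1.84, 1.2 and 1.21 FPKM in WT and 2.35, 1.72 and 1.90 FPKM in WT+PI3Kdi, higher in each pair, and it rose by the blocked fit (log2 fold change 0.48, SE 0.13, adjusted p = 0.0425), though not when any 1 WT pair was left out. In FOXO1-GFP KO it was at 1.39, 2.00 and 1.03 FPKM and with PI3Kdi at 1.40, 2.03 and 1.52 FPKM (log2 fold change 0.18, not passing), and the difference between genotypes did not pass (-0.29, adjusted p = 0.592). Nr1h2 rose in FOXO1-GFP KO, from 23.1, 21.7 and 30.1 to 25.5, 27.8 and 37.9 FPKM (log2 fold change 0.28, SE 0.08, adjusted p = 0.0437 with the replicate block), not passing without FOXO1-GFP KO pair 2 or 3. Abca1 stood at 0.43, 0.19 and 0.16 FPKM in WT, 0.55, 0.24 and 0.25 FPKM in WT+PI3Kdi, 0.11, 0.16 and 0.03 FPKM in FOXO1-GFP KO and 0.12, 0.19 and 0.04 FPKM in FOXO1-GFP KO+PI3Kdi. The groups with PI3Kdi did not overlap between genotypes (log2 fold change -1.04, SE 0.33, adjusted p = 0.239 in the blocked fit), and at that depth no difference in Abca1 passed. Mylip, the LXR-induced ubiquitin ligase, was at 3.09 to 7.97 FPKM and passed in no comparison.

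Promoter sequences were examined because much of the set moved together. RefSeq windows (GRCm38.p6, 250 bases before to 50 after each transcription start) were found for 32 members, and both strands were searched. CCAAT, the letters bound by NF-Y, an SREBP partner, was present in 14 of 15 sterol genes with a window, 6 of 9 fatty acid genes, 4 of 5 regulators and 1 of 3 efflux and LXR genes, compared with 41.1% of all genes in the table of promoters and 43.2% of those measured here. The sterol gene without it was Acat2. TCACNCCAC, a stringent form of the sterol regulatory element, was in 1 member, Hmgcs1, and in 1.44% of all genes. GGGCGG, the GC box of Sp1, was in 26 of 32 members and in 68.1% of measured genes. CACGTG, an E-box that SREBP1 can bind, was in 7 of 32 and in 11.7% of measured genes. GTAAACA, letters bound by FOXO proteins, was in 1 of 32 (Elovl6) and in 3.04% of measured genes.

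The 200 bases before the start are printed for Cyp51, Msmo1 and Sc5d, whose libraries did not overlap between genotypes at either treatment, for Hmgcs1, and for Acat2, which lacked both motifs. Sequences run 5′ to 3′ on the strand of the gene, and capitals mark CCAAT (or ATTGG, the same letters on the other strand) and TCACNCCAC.
Hmgcs1 (chr13:119690151-119690350, plus strand): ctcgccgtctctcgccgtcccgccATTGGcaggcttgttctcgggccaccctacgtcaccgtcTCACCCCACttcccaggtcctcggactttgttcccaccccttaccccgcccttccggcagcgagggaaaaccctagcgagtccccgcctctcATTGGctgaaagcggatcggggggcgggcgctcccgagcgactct
Cyp51 (chr5:4104698-4104897, minus strand): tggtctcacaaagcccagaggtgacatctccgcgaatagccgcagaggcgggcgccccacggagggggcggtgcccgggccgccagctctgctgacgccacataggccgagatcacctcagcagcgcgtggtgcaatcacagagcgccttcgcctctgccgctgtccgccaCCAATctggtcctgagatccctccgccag
Msmo1 (chr8:64733579-64733778, minus strand): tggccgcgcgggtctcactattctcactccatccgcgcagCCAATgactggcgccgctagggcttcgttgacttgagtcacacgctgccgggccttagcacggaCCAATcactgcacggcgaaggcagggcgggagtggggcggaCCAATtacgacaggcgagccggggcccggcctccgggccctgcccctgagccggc
Sc5d (chr9:42264301-42264500, minus strand): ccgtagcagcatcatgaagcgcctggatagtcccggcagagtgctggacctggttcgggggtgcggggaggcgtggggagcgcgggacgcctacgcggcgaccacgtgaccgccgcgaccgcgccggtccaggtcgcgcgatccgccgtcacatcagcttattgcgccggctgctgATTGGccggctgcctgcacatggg
Acat2 (chr17:12960726-12960925, minus strand): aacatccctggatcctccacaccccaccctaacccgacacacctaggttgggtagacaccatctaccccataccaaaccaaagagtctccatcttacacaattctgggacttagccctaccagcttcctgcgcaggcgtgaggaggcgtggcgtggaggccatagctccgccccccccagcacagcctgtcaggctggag
Hmgcs1 held TCACNCCAC between CCAAT letters read on the other strand, Msmo1 held CCAAT 3 times in this stretch, and Cyp51 and Sc5d once each. A match gives letters only and no binding was measured.

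**Figure D5:**
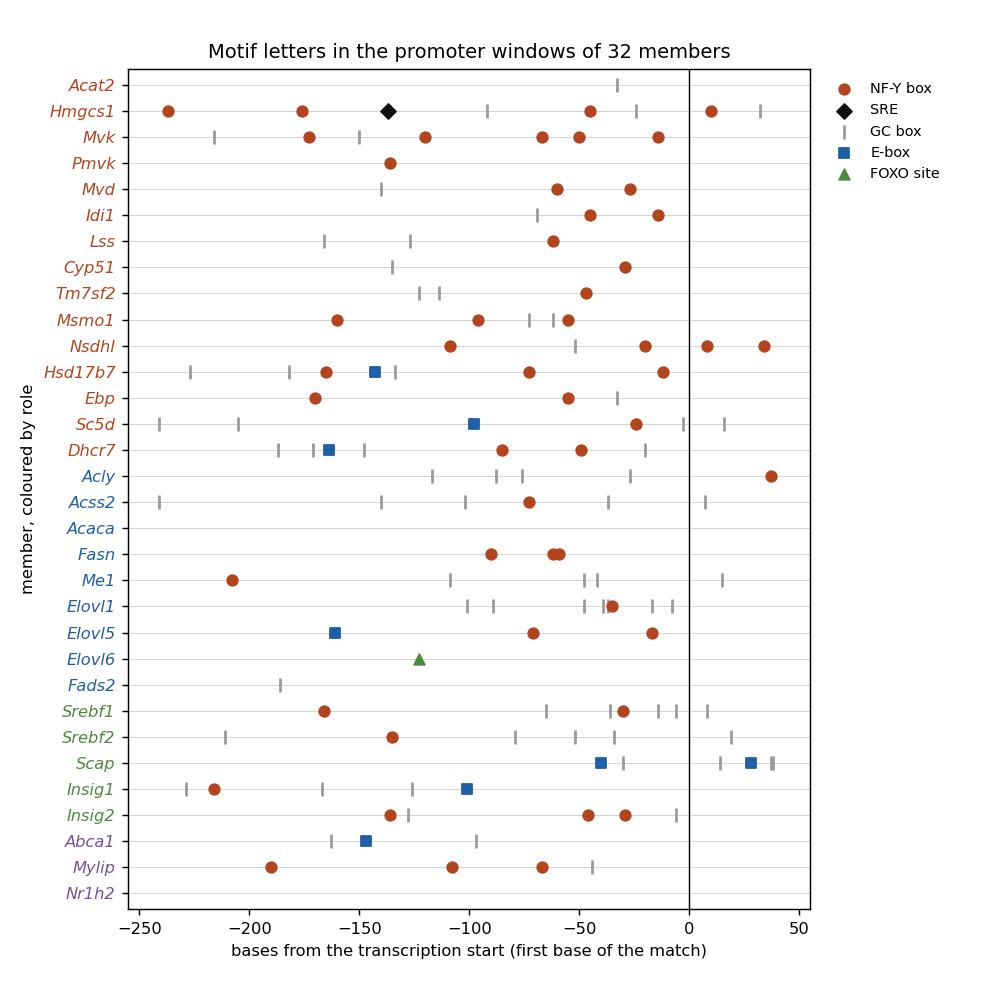
Positions of the 5 motifs (symbols) in the promoter windows of the 32 members with an entry (rows, coloured by role), in bases from the transcription start. The CCAAT symbols (NF-Y box) stand in every sterol row except Acat2, mostly within 200 bases before the start, and the single sterol regulatory element (SRE) is in Hmgcs1.

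Other genes of sterol and lipid handling were taken from a second list of 31, of which 30 were in the table. Without pairing none passed in any comparison. With the replicate block and the adjusted p alone, Ggps1, the geranylgeranyl diphosphate synthase, fell in WT with PI3Kdi (log2 fold change -0.19, adjusted p = 0.0428). It was the only 1 of the 30 to pass there, against 7.41% of all genes. In FOXO1-GFP KO with PI3Kdi 5 of the 30 passed, not all of them named here, against 10.1% of all genes. Acsl3, a long-chain acyl-CoA synthetase, fell there (-0.47, adjusted p = 0.0452), as did Lpcat3, a lysophospholipid acyltransferase (-0.26, adjusted p = 0.00862). Npc2, which carries cholesterol out of lysosomes, rose (0.37, adjusted p = 0.00222), as did Rxrb, a partner receptor of LXR (0.28, adjusted p = 0.0106). None of the genes named here reached a fold change of 1.5.

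Among 6639 genes outside the set with a mean of at least 5 FPKM, those whose pattern over the 12 libraries was most like the mean log2 level of the sterol arm included Rdh11, a retinol dehydrogenase (Pearson r = 0.98), Map2k1, which encodes the kinase MEK1 (0.94), Crmp1 (0.94) and Ccnb1, the mitotic cyclin B1 (0.94). The 12 points share libraries, depth and the low replicate 3 of the FOXO1-GFP KO groups. Ccnb1 is also among the summed proliferation markers. Within the set, the correlation with the mean of the other sterol genes was 0.99 for Sc5d and Cyp51 and 0.97 for Hmgcs1, 0.96 for Fads2 and 0.93 for Insig1, 0.75 for Idi1, 0.66 for Abca1, 0.59 for Acat2, and -0.01 and -0.14 for Tm7sf2 and Ebp.

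Some members share sequence with other loci, and how this affected the reads counted for them was not tested. Fdps, at 1.23 to 2.71 FPKM, shares 1124 of 4208 exon bases with an overlapping gene on the same strand (Gm43738) and is at least 95% identical to 4 processed pseudogenes, so its level is uncertain. Fdft1 shares 774 exon bases with Ctsb on the opposite strand, and Tm7sf2 shares 532 with Vps51 on the same strand. Acaca, Elovl6, Fdft1, Idi1 and Me1 also have near-identical processed pseudogenes. Scd2 is 95.5% identical to a transcript of Scd1 over 623 bases. Hmgcs1 shares 557 of 4594 exon bases with Gm48342 on the opposite strand.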

How the data were processed

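Polyadenylated mRNA from 300 ng RNA was made into stranded libraries and sequenced as 75 bp paired reads. Per the study's methods, the authors aligned reads with STAR (2.7.1a, GRCm38.p6), counted them by gene, filtered low genes, scaled libraries with edgeR and deposited FPKM values to 2 decimals, which were the starting point here. Depth was estimated from the steps between low FPKM values of genes up to 400 bp. In held-out genes of 400 to 800 bp, 98.6% to 99.3% of values then came out whole within 0.02 reads beyond rounding (11.5% to 31.5% by chance). Exon lengths came from GENCODE M21, also on GRCm38.

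FPKM values were tested with limma 3.58.1 (R 4.3.3, intensity trend) on log2(value + 0.1), a scale that understates changes of low genes, with 4 group means and Benjamini-Hochberg adjustment over 13283 genes. Calls needed an adjusted p under 0.05 and a fold change above 1.5, as in the study's methods. With PI3Kdi in WT, 13 genes passed without pairing and 342 with the replicate block. The study, which used voom on counts, reported far more calls for that comparison than the fit without pairing gave here. Its total was close to that of the fit with the replicate block. The reason for the difference was not tested, nor whether the same genes were called. The scripts were tested on simulated data. Deviations from group means correlated at 0.594 to 0.838 in the 6 pairs of libraries with the same number within a genotype. Numbers were therefore taken, from these same data, to pair libraries within a genotype. A second fit had this pair as a replicate block (consensus correlation 0.757). Across genotypes the correlations ran from -0.409 to 0.73. Replicate 3 was the highest there, at 0.73 without PI3Kdi and 0.508 with it, and no block across genotypes was fitted. The labels do not say whether replicates of a group came from separate mice, so p-values measure the spread between these libraries. With 3 against 3 libraries an exact permutation test cannot go below 0.1, so none was used. Alternatives were another pseudocount (1 or 0.01), a filter at a mean of 1 FPKM, quantile normalization, voom on reads estimated from the FPKM, and leaving out each library.

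The members and lists were chosen with earlier results of these data known. Library values are given for members called by either fit, for Srebf1, Srebf2 and Insig1, and for the largest fold changes with PI3Kdi. Other genes shown with library values illustrate a group and were chosen after their values were seen. Motifs were chosen for known roles. 1 of the 5 genes most like the sterol arm, and some genes of the other lists, are not reported here.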

Additional observations from a re-analysis of the deposited data

Results flagged for a closer look

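Among the 40 members, 2 had all 3 WT pairs moving up with PI3Kdi and all 3 FOXO1-GFP KO pairs moving down, a pattern of opposite pairs in either direction that 3.03% of all genes showed. For Acat2 the PI3Kdi response in FOXO1-GFP KO minus that in WT was -0.334 on the log2 scale (limma, adjusted p = 1, and 0.202 with the replicate block). For Srebf2 it was -0.222 (adjusted p = 1, and 0.522 with the replicate block). Some of the pair changes behind this pattern were close to 0. For Srebf2 the log2 ratio was 0.005 in WT pair 2 and -0.028 in FOXO1-GFP KO pair 3. For Acat2 it was -0.028 in FOXO1-GFP KO pair 1. The interaction passed the threshold for neither gene.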

How the results depend on the processing

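With the replicate block, the members called numbered 4 with PI3Kdi in WT, 3 with PI3Kdi in FOXO1-GFP KO and 0 for genotype without PI3Kdi, in place of 0, 0 and 1. With voom and the replicate block the PI3Kdi counts were 5 and 4, and the share of all genes in that fit is not given here. With the replicate block and the adjusted p alone the PI3Kdi counts were 17 and 14, against 7.41% and 10.1% of all genes. The count for genotype without PI3Kdi was then 0. A pseudocount of 1 FPKM gave 1 call with PI3Kdi in WT. The count for genotype with PI3Kdi stayed at 1 and that for the difference of responses at 0 in all 21 alternatives. Leaving out each library in turn gave 0 calls with PI3Kdi in both genotypes and 0 to 1 for genotype without PI3Kdi.

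Alternatives chosen after seeing the data bear on the counts with the replicate block and the adjusted p alone. Leaving out a library or pair gave 3 to 18 members in WT (17 with all) and 2 to 16 in FOXO1-GFP KO (14 with all), and other normalizations gave 16 to 20 and 14 to 16. The members lower in all pairs numbered 24 to 26 with a pair left out. With a library left out, FOXO1-GFP KO was below WT without overlap for 13 to 21 members (8.36% to 12.7% of all genes), and for 9 to 16 with PI3Kdi (10.9% to 13.04%).

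Median log2 fold changes with each library left out were -0.41 to -0.32 (sterol) and -0.37 to -0.11 (fatty acid) with PI3Kdi in WT, -0.43 to -0.14 and -0.45 to -0.094 with PI3Kdi in FOXO1-GFP KO, -0.56 to -0.28 and -0.35 to -0.014 for genotype without PI3Kdi, -0.43 to -0.25 and -0.39 to -0.13 for genotype with PI3Kdi, and -0.021 to 0.20 and -0.21 to 0.10 for the difference of responses. Other alternatives moved no median by more than the spread between replicates. No normalization shifted the median of all genes by more than 0.04 (log2). Depth limits Me1, Abca1, Fdps, Tm7sf2 and Abcg1, which had under 100 estimated reads in some library.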
